A study of Homo sapiens with 18 samples.

Results

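The DNAJ family holds the J-domain cochaperones of Hsp70. Its members were taken here as the protein-coding genes whose whole symbol is DNAJA, DNAJB or DNAJC followed by a number, leaving out 4 members of the endoplasmic reticulum lumen (DNAJB9, DNAJB11, DNAJC3 and DNAJC10). This gave 38 of the 58336 genes in the count table: 4 of class A, 10 of class B and 24 of class C. Of these, 36 passed the filter on low counts and were tested. DNAJB7 and DNAJB8 did not pass it.

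RNA was sequenced from HEK293A, an adherent subline of the human embryonic kidney line HEK293, in 6 groups of 3 libraries. Wild-type cells and cells labelled as a double knockout of LATS1 and LATS2, the core kinases of the Hippo pathway, were each given water, 250 µM ZnCl2 or 50 µM CdCl2 for 4 h. The labels give neither the position of the knockout edits nor the number of clones, so the knockout and other differences between the lines cannot be told apart. The replicates are called biological, with no statement that they were separate cultures, so p-values measure only the spread between these libraries.

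Hsp70 proteins bind and release unfolded protein in a cycle driven by ATP, and the J domain of a DNAJ protein starts ATP hydrolysis and so the tight binding of a client. Class A and B members of the cytosol bring unfolded clients to Hsp70, whereas most class C members carry other domains that place Hsp70 at one site, such as a clathrin coat, the ribosome or the mitochondrial import pore. Some members, DNAJB1 above all, are heat shock genes, driven by HSF1 through heat shock elements, which are repeats of GAA and TTC units. Zinc and cadmium bind protein thiols, and both are known to induce heat shock genes in cultured cells, while metallothionein genes are driven by MTF1 through metal response elements.

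The promoter sequences of the 5 members that come first below are shown for their heat shock element letters. They are from RefSeq on build GRCh38.p14, 5′ to 3′ along the gene's strand, and 150 bases long. They end at the base before an annotated start, except that of DNAJA1, which runs to base 30 of the transcript. Capitals mark matches to GAANNTTC or TTCNNGAA (2 units), or to that pattern continued by NNGAA or NNTTC (3 units), searched on both strands, where a longer match contains a shorter one. The windows of DNAJB1 and DNAJB4, which have several annotated starts, were chosen because they hold a match. The DNAJA1 stretch holds its match only through its shift, at bases 4 to 16 of the transcript. The 150 bases before that start hold none.
DNAJB1 (chr19:14518398-14518547, minus strand): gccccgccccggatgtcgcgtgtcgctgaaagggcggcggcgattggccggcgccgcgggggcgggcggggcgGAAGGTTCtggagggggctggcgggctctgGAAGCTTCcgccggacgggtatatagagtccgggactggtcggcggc
DNAJB4 (chr1:78004789-78004938, plus strand): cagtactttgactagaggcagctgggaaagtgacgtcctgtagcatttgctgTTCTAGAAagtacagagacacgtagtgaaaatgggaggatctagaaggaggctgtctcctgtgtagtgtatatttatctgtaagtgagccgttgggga
DNAJB6 (chr7:157336854-157337003, plus strand): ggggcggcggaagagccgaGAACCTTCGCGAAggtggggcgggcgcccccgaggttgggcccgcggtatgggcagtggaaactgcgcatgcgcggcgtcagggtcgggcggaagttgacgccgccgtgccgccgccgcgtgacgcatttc
DNAJA1 (chr9:33025153-33025302, plus strand): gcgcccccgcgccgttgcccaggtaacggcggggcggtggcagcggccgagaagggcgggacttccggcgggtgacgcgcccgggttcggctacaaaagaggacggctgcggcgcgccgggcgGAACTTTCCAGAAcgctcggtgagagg
DNAJB5 (chr9:34990140-34990289, plus strand): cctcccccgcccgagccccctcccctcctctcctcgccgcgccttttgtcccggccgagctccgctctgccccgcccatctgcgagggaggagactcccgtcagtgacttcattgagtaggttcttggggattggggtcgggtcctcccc

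The DNAJB1 stretch holds 2 separate 8-base matches, DNAJB4 holds 1, and DNAJB6 and DNAJA1 each hold a 13-base match of 3 units. The DNAJB5 stretch has no match, which says only that these letters are not in it. Over the 300-base windows, from 250 bases before to 50 bases after each start, 35 of the 38 members had a sequence. The shorter motif lay in at least 1 window of 8 of these 35 members (22.9%: DNAJA1, DNAJA4, DNAJB1, DNAJB4, DNAJB6, DNAJB7, DNAJC6 and DNAJC15), against 16.2% of 27305 genes. The longer one lay in 2 of 35 (5.71%), DNAJA1 and DNAJB6, against 0.608% of genes. The metal response element core, TGCACNC or TGCGCNC on either strand, lay in 13 of 35 members (37.1%) against 33.4% of genes. These are matches of letters, and no binding was measured.

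Libraries held 25478614 to 37148046 counts. LATS1 transcript was at 77.3 to 82.0 CPM (counts scaled to the library total, TMM-adjusted) in wild-type water libraries and 44.0 to 46.1 in knockout water libraries. LATS2 was at 16.2 to 16.5 and 18.2 to 18.9 CPM, and it was higher after zinc in wild-type libraries (44.3 to 50.2) and in knockout libraries (36.0 to 40.4). It was also higher after cadmium, at 39.0 to 44.7 CPM in wild-type and 23.8 to 25.7 CPM in knockout libraries. Transcript counts over a whole gene do not test an edit of unknown position. Of 6 markers of the HEK293 line, 3 reached 1 CPM in the wild-type groups and 4 in the knockout groups, while PAX2 stayed at or below 0.27 CPM. Leukocyte, erythroid, endothelial and hepatocyte markers summed to at most 0.879 CPM per list in any library, and HBB was at 0 in all 18. Replicate 3 of wild-type zinc stood apart from its group: its counts differed from those of the other libraries by 4.98 and 5.06 (chi-square over its degrees of freedom), against 1.88 between replicates 1 and 2. Without it, 17 members rose and 11 fell after zinc in wild-type cells, as with it, but DNAJC15 and DNAJC27 lost their calls and DNAJC4 and DNAJC5 gained one. In bulk RNA, fewer cells of a kind and less RNA per cell cannot be told apart.

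All 6 groups were fitted in one model with edgeR's quasi-likelihood test over 19393 genes, with Benjamini-Hochberg adjusted p under 0.05 as the call. Changes are log2 fold changes ± standard error, and levels are CPM per library. In the 4 metal comparisons 47% to 61.7% of all genes passed, so a pass alone sets no member apart. In wild-type cells after zinc, 17 of 36 members rose and 11 fell, where 61.3% of all tested genes were called (29.4% higher, 32% lower). After cadmium in wild-type cells, 19 rose and 13 fell, with 61.7% of all genes called (30% higher, 31.7% lower). In knockout cells 15 rose and 9 fell after zinc (55.9% of all genes called, 28.2% higher and 27.7% lower), and 13 rose and 10 fell after cadmium (47% called, 23.2% higher and 23.8% lower). The members' median change was near 0 in 3 of these comparisons: 0.04 for zinc and 0.23 for cadmium in wild-type cells, and 0.05 and -0.01 in knockout cells. Over all tested genes the medians were -0.01, -0.01, 0.00 and 0.00. At 2-fold or more, 7 members rose after zinc in wild-type cells, 3 after cadmium, 6 after zinc in knockout cells and 4 after cadmium, where 9.17%, 9.62%, 7.19% and 4.9% of all genes rose by that much. The zinc counts include DNAJA4 in both genotypes and DNAJB13 in wild-type cells, whose strand-specific reads were mostly antisense, as given below. At 2-fold or more DNAJC28 alone fell, in 3 of the 4 comparisons, where 4.75%, 4.41% and 2.83% of all genes did, and no member did so after cadmium in knockout cells (1.62% of all genes). Every member that rose by that much was a class A or B member.

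**Figure D1:**
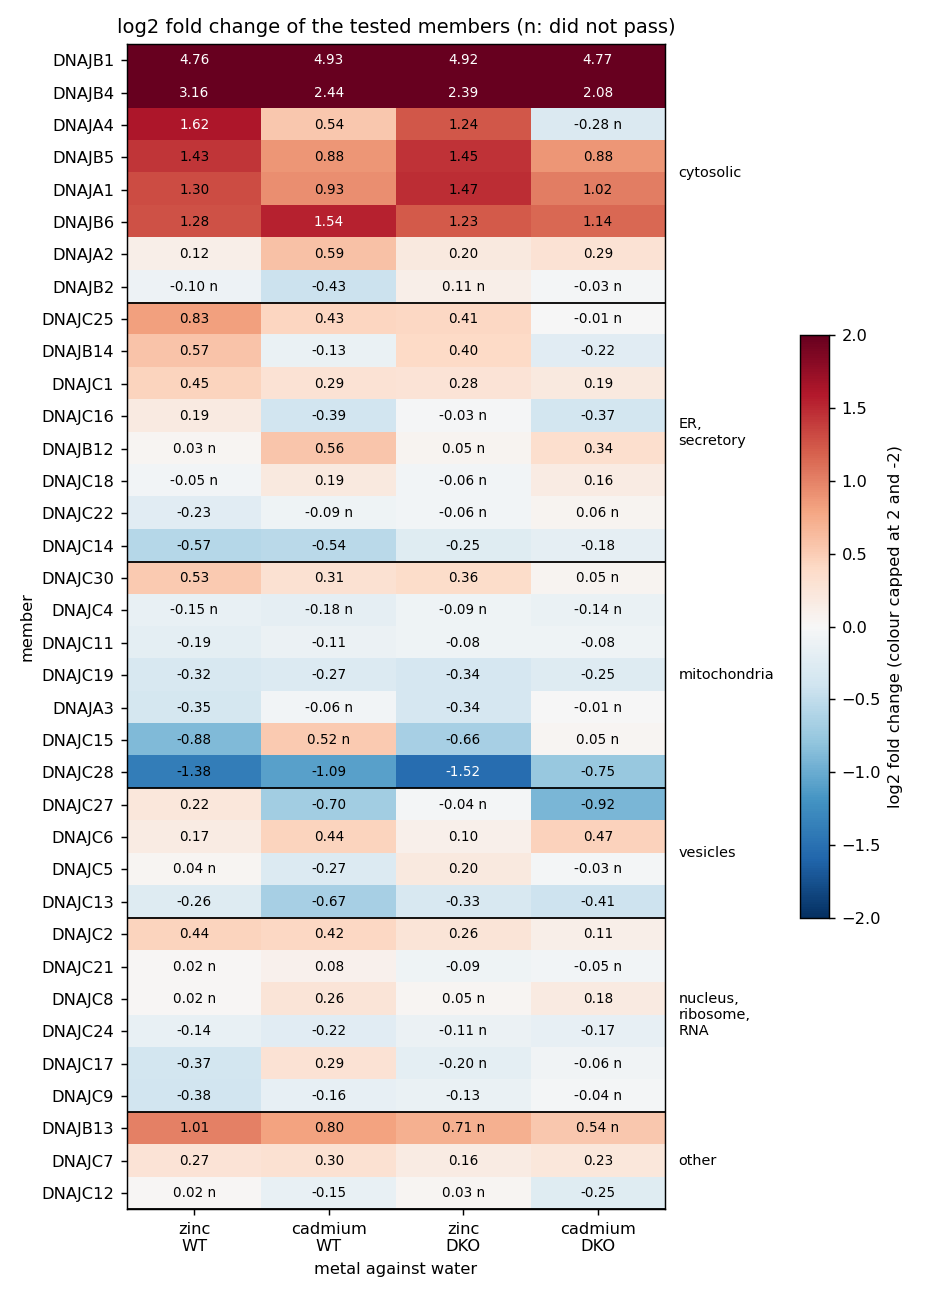
Heatmap of log2 fold change against water for the 36 tested members (rows, grouped by role) in the 4 metal comparisons (columns), with colour capped at 2 in either direction and "n" where the adjusted p was not under 0.05. The cytosolic members at the top hold the strongest rises, led by DNAJB1 at 4.76 to 4.93, while the other roles hold mostly paler cells of both colours.

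The cytosolic class A and B members, which carry unfolded proteins to Hsp70, held the largest rises. Of the 8 tested, 7 rose and none fell after zinc in wild-type cells, with a median of 1.37, and 7 rose and 1 fell after cadmium, with a median of 0.91. In knockout cells 7 rose after zinc and 6 after cadmium, and none fell, with medians of 1.34 and 0.95. DNAJA4 is among those that rose in 3 of these comparisons, but its reads were antisense, as given below. DNAJB2 was the member that did not rise. Of all genes, 29.4% rose and 32% fell after zinc in wild-type cells, and 30% and 31.7% after cadmium. In knockout cells these shares were 28.2% and 27.7% after zinc, and 23.2% and 23.8% after cadmium.

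DNAJB1 (ENSG00000132002, chromosome 19, 14514770 to 14529770 on GRCh38, minus strand), the main heat-inducible Hsp40, which with Hsp70 and Hsp110 proteins takes aggregates apart, had the highest fold of the family. In wild-type cells it was at 169, 171 and 169 CPM in water, 4928, 4739 and 4168 in zinc and 5098, 4931 and 5473 in cadmium. In knockout cells it was at 214, 219 and 200.3 CPM in water, 6571, 6362 and 6259 in zinc and 5859.6, 5662 and 5719.6 in cadmium. All 12 metal libraries stood far above all 6 water libraries, and replicate 3 of wild-type zinc was the lowest of the 12. The rise in wild-type cells was 4.76 ± 0.04 after zinc, or 27.2-fold (edgeR, adjusted p = 2.21e-43), and 4.93 ± 0.05 after cadmium, or 30.5-fold (edgeR, adjusted p = 8.19e-44). In knockout cells it was 4.92 ± 0.04 after zinc, or 30.3-fold, and 4.77 ± 0.04 after cadmium, or 27.3-fold. Only 0.496% of its reads lay antisense, and it shares 211 exon bases with TECR on the opposite strand, which reached at most 3225 counts.

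DNAJB4 (ENSG00000162616, chromosome 1, 77979175 to 78017964, plus strand), a close relative of DNAJB1 that also works with cytosolic Hsp70, came second. In wild-type cells its levels were 22.5, 21.4 and 21.9 CPM in water, 211, 203 and 173 in zinc and 118, 121 and 118 in cadmium. In knockout cells they were 27.4, 25.8 and 24.9 CPM in water, 137, 138 and 133 in zinc and 104, 109 and 116 in cadmium. Every metal library was above every water library, and in zinc all 3 wild-type libraries were above all 3 knockout libraries. The rise after zinc was 3.16 ± 0.05 in wild-type cells (8.94-fold; edgeR, adjusted p = 8.21e-35) and 2.39 ± 0.05 in knockout cells (5.24-fold). After cadmium it was 2.44 ± 0.06 in wild-type and 2.08 ± 0.05 in knockout cells. DNAJB4 was thus more strongly raised by zinc than by cadmium, and DNAJB1 differed between the metals by at most 0.16.

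DNAJA1 (ENSG00000086061, chromosome 9, 33025211 to 33039907, plus strand), a class A cochaperone of the cytosol, rose by less from a higher level. In wild-type cells it was at 475, 451 and 474 CPM in water, 1188, 1152 and 1109 in zinc and 867, 892 and 905 in cadmium. Knockout libraries held 357, 343 and 339 CPM in water, 981, 963 and 941 in zinc and 708, 691 and 713 in cadmium. Within each genotype the 3 treatments did not overlap, with zinc highest, and each knockout group lay below its wild-type counterpart. The rise after zinc was 1.30 ± 0.03 in wild-type and 1.47 ± 0.03 in knockout cells, and after cadmium 0.93 ± 0.03 and 1.02 ± 0.03 (edgeR, adjusted p = 3.72e-31 for zinc in wild-type cells).

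DNAJB6 (ENSG00000105993, chromosome 7, 157335381 to 157417439, plus strand), known for holding back the aggregation of polyglutamine proteins, was a member whose order of metals changed with the genotype. In wild-type cells it was at 89.3, 84.6 and 89.4 CPM in water, 217, 208 and 213 in zinc and 244, 250.2 and 269.5 in cadmium. Its knockout levels were 81.4, 81.9 and 84.1 CPM in water, 194, 199 and 189 in zinc and 182, 181 and 183 in cadmium. Cadmium libraries were all above zinc libraries in wild-type cells and all below them in knockout cells. The change was 1.28 ± 0.03 after zinc and 1.54 ± 0.03 after cadmium in wild-type cells, and 1.23 ± 0.03 and 1.14 ± 0.03 in knockout cells (edgeR, adjusted p = 3.36e-31 for cadmium in wild-type cells). The small knockout difference between cadmium and zinc did not pass without zinc replicate 2 (-0.08; edgeR, adjusted p = 0.0919).

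DNAJB5 (ENSG00000137094, chromosome 9, 34989641 to 34998900, plus strand), another relative of DNAJB1, rose from a low level. In wild-type cells it was at 4.64, 4.36 and 5.44 CPM in water, 14.3, 14.5 and 10.5 in zinc and 8.64, 8.54 and 9.63 in cadmium. The knockout libraries held 4.72, 5.68 and 4.52 CPM in water, 15.1, 13.02 and 12.4 in zinc and 9.49, 8.62 and 9.20 in cadmium. In both genotypes zinc was above cadmium and cadmium above water with no overlap. The fold was nearly alike in both: 1.43 ± 0.11 and 1.45 ± 0.11 after zinc, and 0.88 ± 0.12 and 0.88 ± 0.11 after cadmium (edgeR, adjusted p = 3.30e-14 for zinc in wild-type cells).

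**Figure D2:**
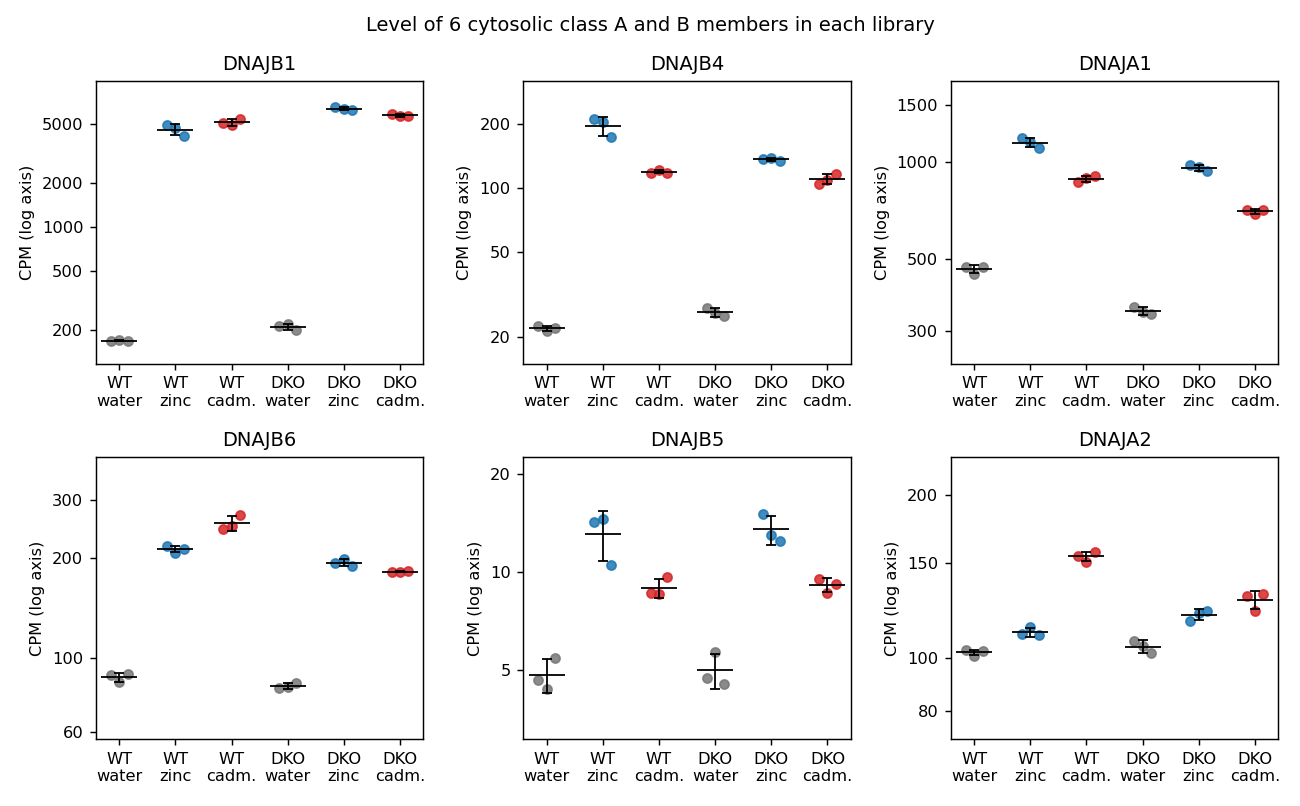
CPM per library on a log axis for DNAJB1, DNAJB4, DNAJA1, DNAJB6, DNAJB5 and DNAJA2 in the 6 groups; points are libraries and bars are the mean ± SD of 3. DNAJB1 goes from 169.7 CPM in wild-type water to 4612 in zinc, while DNAJA2 moves only between 102 and 154 CPM in wild-type groups.

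DNAJA2, another class A cochaperone of the cytosol, responded to cadmium more than to zinc in wild-type cells. It rose by 0.59 ± 0.03 after cadmium and 0.12 ± 0.03 after zinc in wild-type cells, and by 0.29 ± 0.03 and 0.20 ± 0.03 in knockout cells. Its difference between cadmium and zinc was 0.46 in wild-type cells. In knockout cells it was 0.09, a call lost when scaled by library size alone and without zinc replicate 1, cadmium replicate 1 or cadmium replicate 3. Its wild-type zinc rise was also lost when scaled by library size alone. DNAJB2, which carries ubiquitin-binding motifs and passes clients to the proteasome, fell by 0.43 after cadmium in wild-type cells, the only fall among the 8. Its other 3 metal changes, between -0.10 and 0.11, did not pass the test.

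For 3 of the 10 cytosolic members the deposited unstranded counts hold almost no reads of the gene's own strand. DNAJA4 had 964 unstranded reads over 18 libraries, of which 20 were on its own strand. Its values (1.62, 0.54, 1.24 and -0.28 for zinc and cadmium in wild-type and then knockout cells, the last not passing the test) are therefore of reads from the opposite strand, and DNAJA4 itself was too low to test on strand-specific counts. The wild-type cadmium call of DNAJA4, at 0.54, was lost when scaled by library size alone, with no filter on low counts, and without any of 3 single libraries. DNAJB7 had 11 reads on its own strand and 752 antisense, and DNAJB8 had 2 on its own strand.

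DNAJB1 came to hold most of the family's counts under both metals. Summed over all 38 members, the family held 2419.6 ± 22.5 CPM (mean ± SD, n = 3) in wild-type water libraries, 7888 ± 452 in zinc and 8209.7 ± 311 in cadmium. Knockout libraries held 2252 ± 26.3, 9312 ± 177 and 8387 ± 120.5 CPM. DNAJB1 made up 7.01 ± 0.116% of that sum in wild-type water, 58.4 ± 1.71% in zinc and 62.9 ± 1.02% in cadmium, and 9.37 ± 0.336%, 68.7 ± 0.426% and 68.5 ± 0.335% in knockout cells. Without DNAJB1 and DNAJA1, the sum moved from 1783 ± 11.4 CPM in wild-type water to 2126 ± 18.4 in zinc and 2154 ± 25.6 in cadmium. In knockout cells that remainder was 1694 ± 10.2, 1953 ± 13.2 and 1936 ± 20.1 CPM.

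**Figure D3:**
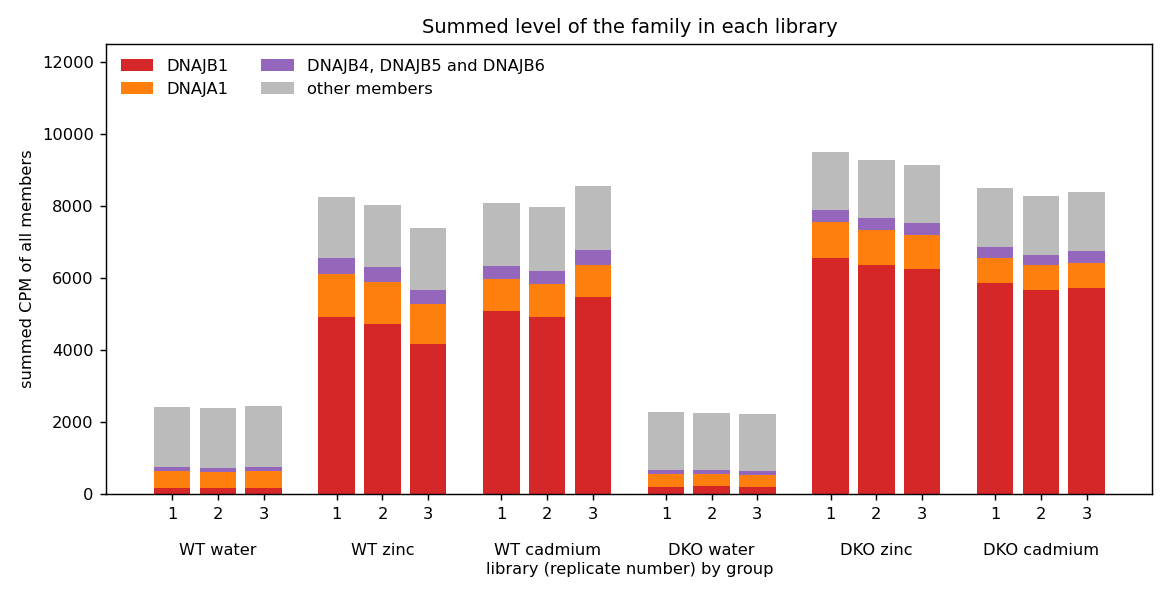
Summed CPM of the 38 members in each of the 18 libraries, stacked as DNAJB1, DNAJA1, the sum of DNAJB4, DNAJB5 and DNAJB6, and all other members. The growth of the bars under both metals lies mainly in the DNAJB1 segment, and replicate 3 of wild-type zinc has the lowest metal bar at 7382 CPM.

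Per kilobase of exon, the order of the members changed with treatment. The length is of all annotated exons of a gene merged, and the unstranded counts lose reads shared with overlapping genes, so places are approximate. In wild-type water DNAJA1 led at 171 ± 4.91 CPM per kb (mean ± SD, n = 3), followed by the splicing-associated DNAJC8 at 76.7 ± 3.37, DNAJB1 at 46.2 ± 0.336 and DNAJC5 at 26.4 ± 1.12. On sense-strand counts DNAJC11 held 4220, 5024 and 5832 reads there over 5.083 kb. DNAJC5 held fewer, 3493, 4410 and 4866, over 5.287 kb, so its place depends on the counts used. In zinc DNAJB1 led at 1256 ± 108, ahead of DNAJA1 at 421 ± 14.6, DNAJC8 at 77.7 ± 2.53 and DNAJB4 at 51.8 ± 5.29, and in cadmium the same 4 came first with DNAJB1 at 1407 ± 75.5. DNAJB4 was at place 21 of 38 in wild-type water, where it and DNAJB6, at 5.79 and 5.86 CPM per kb, did not differ beyond their spread. In knockout water DNAJB1 and DNAJC8, at 57.4 ± 2.58 and 56.3 ± 2.03, did not differ beyond their spread either.

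Among the 7 mitochondrial members falls were more common after zinc than rises. After zinc 5 of 7 fell and 1 rose in each genotype, with medians of -0.32 in wild-type and -0.34 in knockout cells. Of all genes 32% and 27.7% fell after zinc, and 29.4% and 28.2% rose. In knockout cells 3 of the 7 fell without water replicate 1, 2 or 3 or zinc replicate 1, since DNAJC11 and DNAJC15 then did not pass. After cadmium 3 fell and 1 rose in wild-type cells, and 3 fell in knockout cells, with medians of -0.11 and -0.08. With 31.7% and 23.8% of all genes falling after cadmium, these counts do not set the 7 members apart. DNAJC19, a subunit of the import motor at the inner membrane, fell in all 4 comparisons, from -0.25 to -0.34. DNAJA3, the mitochondrial class A member that works with HSPA9, fell after zinc (-0.35 ± 0.03 and -0.34 ± 0.03), while its cadmium values of -0.06 and -0.01 did not pass. DNAJC11, found with the cristae junction complex, fell by at most 0.19, and its calls in knockout cells, at -0.08 and -0.08, were lost without most single knockout libraries of the same comparison.

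DNAJC28 had the deepest fall of the family but at 1.74 CPM in wild-type water it is a low gene. It fell by 1.38 after zinc and 1.09 after cadmium in wild-type cells, and by 1.52 and 0.75 in knockout cells. DNAJC15, an import motor subunit related to DNAJC19 and near 0.913 CPM in wild-type water, fell after zinc (-0.88 ± 0.32 and -0.66 ± 0.27), and its cadmium values of 0.52 and 0.05 did not pass. DNAJC30 was the riser, by 0.53 after zinc and 0.31 after cadmium in wild-type cells and by 0.36 after zinc in knockout cells. DNAJC4 passed in none of the 4. Calls on these low genes hung on single libraries: the DNAJC15 fall after zinc in wild-type cells was -0.45 without water replicate 2 (edgeR, adjusted p = 0.276), and the DNAJC28 fall after cadmium in knockout cells was -0.51 without cadmium replicate 1 (edgeR, adjusted p = 0.13).

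The 8 members of the endoplasmic reticulum and secretory membranes moved in both directions under both metals. In wild-type cells 4 rose and 2 fell after zinc, and 4 rose and 3 fell after cadmium. In knockout cells 3 rose and 1 fell after zinc, and 3 rose and 3 fell after cadmium. Each direction held 23.2% to 32% of all genes in the 4 comparisons, so these counts do not set the 8 members apart. DNAJB12 and DNAJB14 are relatives whose J domains face the cytosol from the reticulum membrane, where they take part in the disposal of misfolded membrane proteins. DNAJB14 was at 48.7, 53.2 and 50.0 CPM in wild-type water, 75.0, 79.4 and 71.1 in zinc and 45.2, 46.3 and 46.9 in cadmium. Its knockout levels were 36.6, 36.2 and 39.0 CPM in water, 48.0, 49.0 and 51.2 in zinc and 30.9, 32.1 and 33.4 in cadmium. Its zinc libraries were above its water libraries in both genotypes, and its cadmium libraries were below them. DNAJB14 rose by 0.57 ± 0.04 and 0.40 ± 0.05 after zinc and fell by 0.13 and 0.22 after cadmium. The wild-type cadmium fall did not pass without water replicate 2 (-0.10; edgeR, adjusted p = 0.0797). DNAJB12 rose after cadmium (0.56 ± 0.04 and 0.34 ± 0.04), and its zinc values of 0.03 and 0.05 did not pass.

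DNAJC25 was at 20.9, 20.6 and 21.0 CPM in wild-type water, 34.8, 36.3 and 39.6 in zinc and 26.4, 28.3 and 29.4 in cadmium. In knockout cells it was at 24.1, 22.3 and 24.7 CPM in water, 32.0, 31.0 and 31.7 in zinc and 24.2, 21.8 and 24.5 in cadmium, so that only zinc stood clear of water there. It rose by 0.83 ± 0.06 after zinc and 0.43 ± 0.06 after cadmium in wild-type cells, and by 0.41 ± 0.05 after zinc in knockout cells. DNAJC1, whose J domain lies in the reticulum lumen, rose in all 4 comparisons, from 0.19 to 0.45. The lowest of these, after cadmium in knockout cells, was 0.07 when scaled by library size alone (edgeR, adjusted p = 0.393), and it did not pass without any of 5 single libraries (water replicates 1 and 2 and each cadmium replicate), with 0.12 without water replicate 1. DNAJC14, a reticulum membrane protein known from receptor export, fell in all 4, from -0.18 to -0.57. DNAJC16 rose by 0.19 after zinc in wild-type cells and fell by 0.39 and 0.37 after cadmium. DNAJC18 passed after cadmium, at 0.19 and 0.16, and in neither genotype when scaled by library size alone. In knockout cells DNAJC18 was also lost without water replicate 1 or 2 or cadmium replicate 1. DNAJC22 passed once, at -0.23 after zinc in wild-type cells, and not without water replicate 3.

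Of the 4 members of vesicle and endosome traffic, 2 rose and 1 fell after zinc in each genotype, while after cadmium 1 rose and 3 fell in wild-type cells and 1 rose and 2 fell in knockout cells. With 23.2% to 32% of all genes called in each direction, counts among 4 members do not set them apart. DNAJC27, a small GTPase-like protein with a J domain, was at 8.33, 7.16 and 7.51 CPM in wild-type water, 8.74, 8.60 and 9.37 in zinc and 4.73, 4.65 and 4.72 in cadmium. Knockout libraries held 10.3, 9.50 and 9.95 CPM in water, 9.74, 9.28 and 9.87 in zinc and 4.91, 5.04 and 5.82 in cadmium. The cadmium libraries were below all others in both genotypes. DNAJC27 fell by 0.70 and 0.92 after cadmium, and after zinc it rose by 0.22 in wild-type cells and was at -0.04, not passing, in knockout cells. That rise did not pass when scaled by library size alone (0.16; edgeR, adjusted p = 0.0934), with no filter on low counts, or without water replicate 2 or 3 or zinc replicate 3. DNAJC13, which acts in sorting at endosomes, fell in all 4, from -0.26 to -0.67. DNAJC6, the auxilin that strips clathrin from vesicles, rose in all 4, most after cadmium (0.44 and 0.47). Its knockout zinc rise of 0.10 did not pass in DESeq2, when scaled by library size alone, with no filter, or without water replicate 1 or 3 or zinc replicate 2 or 3. DNAJC5, the cysteine string protein of vesicles, fell by 0.27 after cadmium in wild-type cells and rose by 0.20 after zinc in knockout cells.

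Among the 6 members of nucleus, ribosome and RNA processing, 1 rose and 3 fell after zinc in wild-type cells, and 4 rose and 2 fell after cadmium. In knockout cells 1 rose and 2 fell after zinc, and 2 rose and 1 fell after cadmium. These counts do not set the 6 members apart, since 23.2% to 32% of all genes were called in each direction. DNAJC2, which sits at the ribosome exit as part of the ribosome-associated complex, rose in all 4, from 0.11 after cadmium in knockout cells, a value at -0.003 when scaled by library size alone, to 0.44. DNAJC8 passed after cadmium, at 0.26 and 0.18, the second not when scaled by library size alone. DNAJC9, a histone H3-H4 chaperone, fell by 0.38 after zinc and 0.16 after cadmium in wild-type cells and by 0.13 after zinc in knockout cells, the last not passing without water replicate 2 or zinc replicate 2 or 3. DNAJC24, a factor of diphthamide synthesis, fell in 3 of 4, from -0.14 to -0.22, the smallest not passing without wild-type water replicate 3. DNAJC21, a ribosome biogenesis factor, rose by 0.08 after cadmium in wild-type cells, where it was at -0.04 when scaled by library size alone, and fell by 0.09 after zinc in knockout cells. Both calls were lost without several single libraries.

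DNAJC17, a nuclear member tied to splicing, went down after zinc and up after cadmium in wild-type cells (-0.37 ± 0.09 and 0.29 ± 0.08), and passed in neither comparison in knockout cells. The cadmium rise did not pass when scaled by library size alone. Its unstranded reads were 43.2% antisense, and on strand-specific counts the values were -0.40 and 0.37. Of the remaining 3 members, DNAJC7, which bridges Hsp70 and Hsp90, rose in all 4, from 0.16 to 0.30. DNAJC12, a cochaperone of aromatic amino acid hydroxylases, fell after cadmium by 0.15 and 0.25, the first not passing in DESeq2 or without water replicate 3 or cadmium replicate 2 or 3. DNAJB13, a protein of cilia and sperm tails, passed in wild-type cells at 1.01 and 0.80, but 65.9% of its reads were antisense and on strand-specific counts these were 0.43 and 0.21, which did not pass. In knockout cells the order was the other way: 0.71 and 0.54 did not pass, while the strand-specific 0.84 and 1.02 did.

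The other genes of the Hsp70 cycle, 33 in a list all of which were tested, rose more often than they fell. After zinc 20 rose and 10 fell in wild-type cells and 21 and 2 did in knockout cells, and after cadmium 22 rose and 7 fell in wild-type cells and 20 and 4 did in knockout cells. The medians of the 33 were 0.39, 0.32, 0.44 and 0.31 in that order, against medians of -0.01 to 0.00 over all genes. Of all genes, 29.4% rose and 32% fell after zinc in wild-type cells, and 28.2% and 27.7% in knockout cells. After cadmium the shares were 30% and 31.7% in wild-type cells, and 23.2% and 23.8% in knockout cells. Of the 4 reticulum lumen members left out of the family here, 3 rose in every metal comparison, and 1 fell in all but cadmium in knockout cells. Of 10 Hsp70 proteins, 8 rose after zinc in wild-type cells and 9 in each other comparison. HSPA8, the constitutive cytosolic Hsp70, rose by 1.10 after zinc and 0.85 after cadmium in wild-type cells. HSPA6, a strictly stress-induced Hsp70, rose by 6.71 and 8.78 from 2.53 CPM. HSPA1A and HSPA1B, at 3.16 and 2.37 after zinc, are near-identical copies whose split is uncertain. Of 14 nucleotide exchange factors, which free Hsp70 of ADP, 8 rose and 6 fell after zinc in wild-type cells, and 8 rose and 4 fell after cadmium. HSPH1, an Hsp110 protein, rose by 3.56 and 3.20, and BAG3, a link to autophagy, rose by 3.40 and 3.81. HSF1 transcript was at -0.06, not passing, after zinc and fell by 0.19 after cadmium.

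In water, knockout cells differed from wild-type cells in 10 members that were higher and 13 that were lower, with 62.9% of all genes called (30.8% higher, 32.1% lower). No member differed by 2-fold or more, where 10.2% of all genes were higher and 4.5% lower by that much. DNAJB1 was higher by 0.31 ± 0.04 (edgeR, adjusted p = 2.07e-08) and DNAJB4 by 0.25 ± 0.07, while DNAJA1 was lower by 0.43. Past the test at 0.5 or more were 3 members, against 29.9% of all genes: DNAJC1 (-0.51 ± 0.07), DNAJC13 (-0.51 ± 0.04) and the antisense-read DNAJA4 (0.53 ± 0.21). The DNAJA4 call was lost with no filter on low counts and without any of 4 single libraries. DNAJC22 was higher by 0.48, and DNAJC8 and DNAJB14 were lower by 0.45 and 0.44. Markers of the line moved with genotype: the 6-gene HEK293 list summed to 68.2 to 70.3 CPM in wild-type and 119 to 120.1 in knockout water libraries, and the 4-gene fibroblast list to 10.7 to 12.3 and 46.2 to 52.5 CPM. The fibroblast sum came mainly from COL1A1 and COL3A1, with DCN at or below 0.03 CPM. The HEK293 sum was also lower under both metals in wild-type libraries (37.9 to 38.8 CPM in zinc and 32.15 to 34.9 in cadmium) and in knockout libraries (77.1 to 80.1 and 94.5 to 98.4 CPM). LHX1 of that list was instead higher under both metals in knockout libraries. It was at 5.68 to 7.26 CPM there in water, 9.75 to 10.1 in zinc and 9.78 to 11.6 in cadmium. In wild-type libraries LHX1 was higher in cadmium only, at 4.18 to 4.57 CPM in water, 4.13 to 4.37 in zinc and 4.95 to 5.54 in cadmium. The part of these shifts in the differences between genotypes and treatments was not tested.

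The changes under a metal lay close together in the 2 genotypes. Across the 36 members, which are genes and not independent replicates, the zinc responses of the 2 genotypes had Pearson r of 0.981 and Spearman rho of 0.955, and 0.963 and 0.946 without DNAJB1 and DNAJB4. For cadmium they were 0.969 and 0.848, and 0.877 and 0.819 without those 2. After zinc 14 members rose and 8 fell in both genotypes, after cadmium 13 and 10 did, and none passed in opposite directions. The same counts and correlations over all genes were not computed, so these do not set the members apart. The response difference itself, knockout minus wild type, passed for 10 of 36 members for zinc (5 higher, 5 lower) and 14 for cadmium (4 higher, 10 lower), where 24.6% and 28.1% of all genes were called (14.1% higher and 10.5% lower for zinc, 14% and 14.1% for cadmium). At 0.5 or more 1 member passed for zinc, DNAJB4, and 1 for cadmium, the antisense-read DNAJA4, where 7.06% and 8.85% of all genes did.

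The zinc response differed most in DNAJB4, where knockout minus wild type was -0.77 ± 0.08 (edgeR, adjusted p = 9.21e-10) and -0.85 without wild-type zinc replicate 3, followed by DNAJC25 at -0.41 ± 0.08. DNAJA1 responded slightly more in knockout cells, by 0.17 ± 0.04, and DNAJC14 (0.32 ± 0.08) and DNAJC9 (0.25 ± 0.07) fell less there. For cadmium, DNAJB4 (-0.36 ± 0.08), DNAJB6 (-0.39 ± 0.05), DNAJC25 (-0.44 ± 0.08), DNAJC17 (-0.35 ± 0.12), DNAJC2 (-0.31 ± 0.05), DNAJB12 (-0.22 ± 0.05) and DNAJA2 (-0.30 ± 0.05) rose less in knockout cells or not at all. The DNAJC17 difference was lost without any of 6 single libraries, and was -0.28 without knockout water replicate 1 (edgeR, adjusted p = 0.106). DNAJB2 (0.40 ± 0.08), DNAJC14 (0.36 ± 0.08) and DNAJC13 (0.26 ± 0.06) fell less there. For DNAJB1 the difference was 0.16 ± 0.06 for zinc (edgeR, adjusted p = 0.032) and -0.16 ± 0.06 for cadmium (0.0284), opposite in sign and small beside responses of over 4. Neither was called by DESeq2 (adjusted p = 0.192 and 0.112), and leaving out any of 4 single libraries ended the zinc call and any of 6 the cadmium call. Without wild-type zinc replicate 3 the zinc difference was 0.09 (edgeR, adjusted p = 0.137). A difference of responses also takes in the water levels. DNAJB4 was at 24.9 to 27.4 CPM in knockout and 21.4 to 22.5 in wild-type water libraries. In cadmium it was at 104 to 116 CPM in knockout and 118 to 121 in wild-type libraries.

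**Figure D4:**
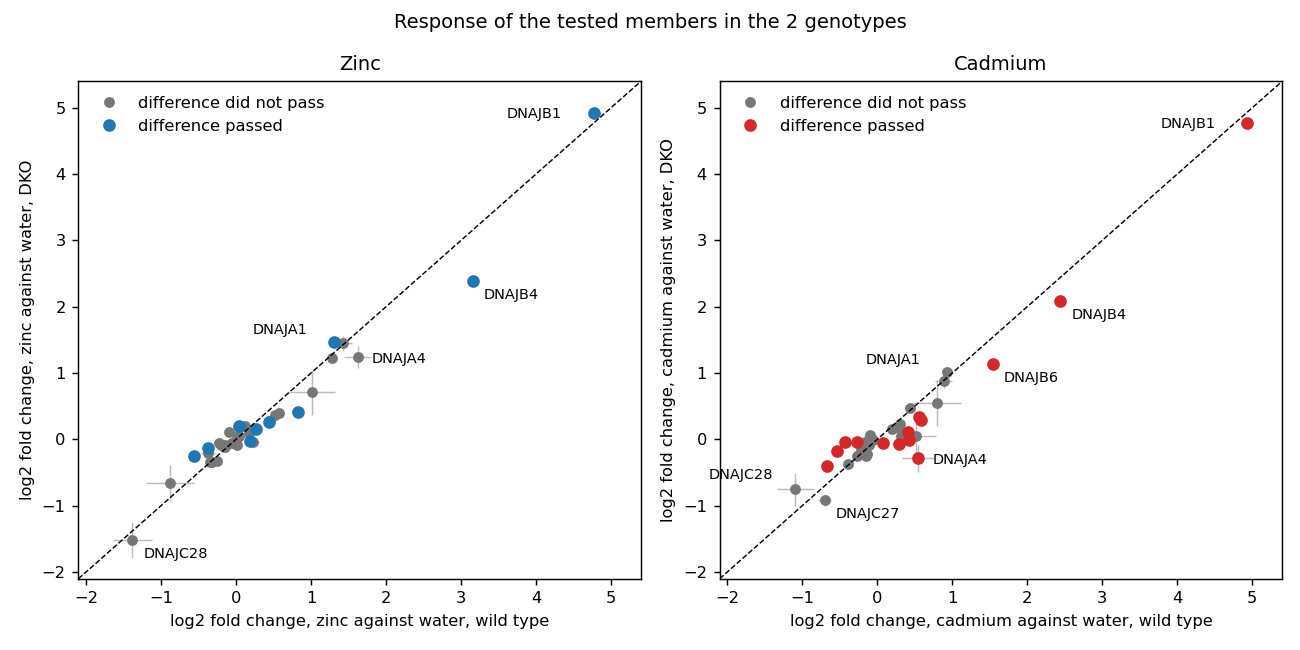
Log2 fold change against water in wild-type (x axis) and knockout cells (y axis) for the 36 tested members, zinc and cadmium in separate panels, with standard error bars, a dashed line of equality and colour where the difference of responses passed the test. Points lie near the line, and DNAJB4 lies below it in both panels, by 0.77 for zinc and 0.36 for cadmium.

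Zinc and cadmium libraries of a genotype were also compared directly, at the single doses used, which differ (250 µM and 50 µM). In wild-type cells 11 members were higher in cadmium and 14 were lower, with 52.3% of all genes called (27.3% higher, 25% lower), and in knockout cells 9 and 15 were, with 48.2% called (24% and 24.3%). At 0.5 or more 9 members passed in wild-type and 6 in knockout cells, against 21.1% and 17.5% of all genes. Lower in cadmium by 0.5 or more in both genotypes were DNAJB14 (-0.70 ± 0.04 and -0.62 ± 0.05), DNAJC27 (-0.92 ± 0.09 and -0.88 ± 0.09), DNAJB5 (-0.55 ± 0.10 and -0.56 ± 0.10) and the antisense-read DNAJA4. DNAJB4 was lower by 0.72 in wild-type and 0.31 in knockout cells, and DNAJC16 by 0.58 and 0.34. Higher in cadmium were DNAJC15 (1.40 ± 0.29 and 0.71 ± 0.27), a low gene, DNAJB12 (0.53 ± 0.04 and 0.29 ± 0.04), DNAJC17 in wild-type cells (0.66 ± 0.09) and DNAJC28 in knockout cells (0.76 ± 0.31). The DNAJC15 and DNAJC28 calls in knockout cells were lost without single libraries, with values of 0.51 without zinc replicate 2 and 0.50 without cadmium replicate 2 at the lowest. DNAJB1 was higher in cadmium in wild-type cells and lower in knockout cells, at 0.16 and -0.15.

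**Figure D5:**
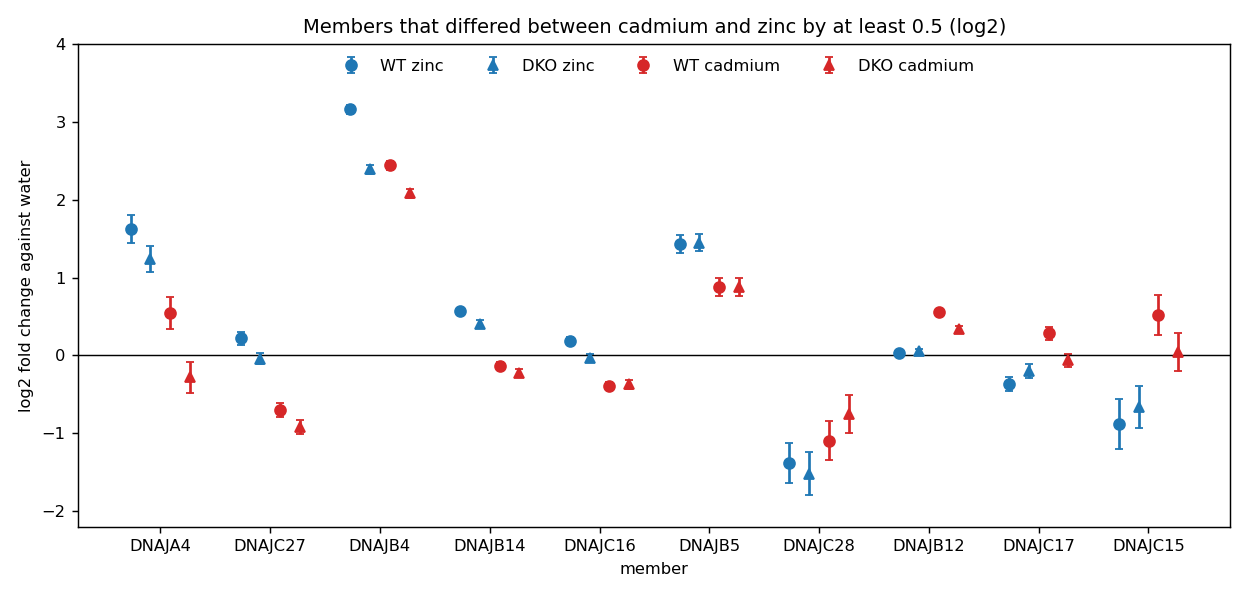
Log2 fold change against water ± standard error for the 10 members whose cadmium and zinc libraries differed by 0.5 or more past the test in either genotype, zinc in blue and cadmium in red, circles for wild-type and triangles for knockout cells. Zinc lies above cadmium for DNAJA4, DNAJC27, DNAJB4, DNAJB14, DNAJC16 and DNAJB5 in both genotypes, and below it for DNAJC28, DNAJB12, DNAJC17 and DNAJC15.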

How the data were processed

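RNA extracted with TRIzol was made into Illumina TruSeq stranded mRNA libraries, per the labels' protocols. The authors deposited raw counts per Ensembl gene in 3 columns (unstranded, sense and antisense), whose reads were aligned with STAR; the submitters' processing notes name hg38 and GRCh38.p13. For annotation, counter and versions: not given in the sources used here. The unstranded counts were used, so reads from opposite strands cannot be told apart, and reads shared by overlapping genes are lost: DNAJC9 had 17833 unstranded and 48302 sense reads over all libraries, and DNAJC11 51455 and 80108. The antisense column held 5.242% to 5.938% of the unstranded total. Symbols came from GENCODE 29 (58216 of 58336 IDs found).

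The test was edgeR 4.0.16 (R 4.3.3): filterByExpr with a minimum count of 10, TMM scaling, glmQLFit over 18 libraries and glmQLFTest for 9 comparisons, with Benjamini-Hochberg adjustment over 19393 genes. The biological coefficient of variation was 3.93%. Standard errors are the log2 change over the root of F, hence approximate. CPM uses TMM-scaled totals. On data simulated from these libraries, the zinc comparison in wild-type cells recovered 68, 88, 100 and 100% of 50 genes each changed 1.25-, 1.5-, 2- and 4-fold. The difference of zinc responses recovered 56, 74, 92 and 100% of them. Unchanged genes called were 9 and 7. The changed genes were drawn only from those with a mean of at least 1 CPM, so recovery below that level was not simulated. Far fewer genes were changed in the simulation than were called in the data, so recovery in the data can differ. Members, gene lists and tests were chosen with earlier results of these data known. Members with their value in every library are those with adjusted p under 0.05, an absolute log2 change of at least 1 in a metal comparison and a mean of at least 5 CPM. Also named are those at 0.5 or more in an interaction, in cadmium against zinc or in knockout against wild type. DNAJB14, DNAJC25 and DNAJC27 were given by library after their values were seen. In all, 25 alternatives were run, among them DESeq2 1.42.0, other scalings and filters, strand-specific counts, a replicate block and leaving out each library.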

Additional observations from a re-analysis of the deposited data

Results flagged for a closer look

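The zinc response of DNAJB4 differed between the genotypes by a test of the difference itself, with a log2 value of -0.77 in knockout minus wild-type cells (edgeR, adjusted p = 9.21e-10). In zinc, all 3 knockout libraries (133 to 138 CPM) lay below all 3 wild-type libraries (173 to 211 CPM). The cadmium response under the symbol DNAJA4 differed by -0.83 (edgeR, adjusted p = 0.0293), at 1.03 to 1.55 CPM in wild-type and 0.999 to 1.14 CPM in knockout cadmium libraries. These are counts of 964 reads in all, 20 of them on the gene's own strand, so this value is of antisense reads. DESeq2 did not call it (adjusted p = 0.0610), and it was lost without any of 7 single libraries.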

How the results depend on the processing

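Of the values that the naming rule covers, recomputed under the alternatives, 2353 kept their direction and call, 97 lost the call, and none reversed. Of the member counts, 440 stayed within 1.5 times. With library size alone as scaling, 16 members rather than 10 fell after cadmium in knockout cells, the all-gene median went to -0.13 and -0.12 for cadmium in wild-type and knockout cells, and the share of called genes that were higher went from 48.6% to 35.5% and from 49.3% to 28.8% (zinc in knockout cells, 50.4% to 37.2%). The splits of members higher and lower were then 14 and 16 for cadmium in wild-type and 9 and 16 in knockout cells, and small changes near 0 cannot be given a direction: DNAJC21 after cadmium in wild-type cells turned from 0.08 to -0.04. With a filter of 5 CPM in 3 libraries, members lower after zinc in knockout cells went from 9 to 4, and members lower for the zinc response difference from 5 to 8. Leaving out single libraries gave 3 to 6 members higher and 3 to 5 lower for the zinc difference, 6 to 10 lower for the cadmium difference and 5 to 9 higher for cadmium against zinc in knockout cells. The lowest values came without wild-type water replicates 2 or 3, wild-type zinc replicate 3, wild-type cadmium replicate 3, knockout water replicates 1 or 3, or knockout cadmium replicate 3. With strand-specific counts 15 members rose and 11 fell after zinc in wild-type cells, and 17 and 14 after cadmium. The replicate numbers carry no stated pairing, and the correlations of same-numbered libraries ran from -0.0249 to 0.0864 over 45 pairs, although 16 of 18 libraries correlated best with their own number. A replicate block left the member counts of the 4 metal comparisons and of knockout against wild type in water as they were, and gave 6 higher and 6 lower for the zinc difference. The cause of these changes was not tested. Depth limits DNAJA4, DNAJB7, DNAJB8, DNAJB13, DNAJC15 and DNAJC28 most.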
